A study of Bos taurus with 16 samples.

Results

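The retinoid receptors of the bovine genome are encoded by 6 genes, namely the retinoic acid receptors RARA, RARB and RARG and the retinoid X receptors RXRA, RXRB and RXRG. They were chosen by gene symbol, because LY2955303 (LY) is an inhibitor of RARγ, the product of RARG. All 6 were listed in each of the 3 expression tables, among 38959 genes in the first blastocyst table, 37429 in the second and 28303 in the table of bovine embryonic stem cells (bESCs). Whether the target of the drug was read in these cells, which receptors were read beside it, and whether their levels changed with LY were examined here.

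RNA sequencing covered 12 single IVF blastocysts of day 8 and 4 bESC libraries, all labelled as wild type and as batch 1. In the first blastocyst table, embryos cultured with 10 μM LY from the 2-cell stage (LY10, n = 3) were compared with embryos given DMSO alone (DMSO, n = 3). In the second table, LY was started at the 2-cell stage (cell2_LY, n = 2) or at the 16-cell stage (cell16_LY, n = 2) and compared with a vehicle group (LY_DMSO, n = 2). The labels give no concentration for the LY of the second table. In the first experiment the methods place LIF, FGF2 and IGF1 in the embryo culture medium of control and LY embryos alike. The bESCs were grown in TiFX, a stem cell medium that holds LIF, forskolin and inhibitors of MEK, Wnt, DOT1L, FGF receptor and GSK3 signaling, on mouse embryonic fibroblast feeders, either in TiFX alone (bESC_tifx, n = 2) or with LY added (bESC_LY, n = 2), which the methods give as 10 μM for 3 days. The methods speak of a DMSO control for the bESCs where the labels name the TiFX medium. Blastocyst RNA was copied and amplified by SMART-seq and bESC RNA was purified from cultures, so levels in the blastocyst and bESC tables are set side by side and were not tested against each other. The labels number the libraries but do not say that bESC libraries came from separate cultures, and p-values then measure only the spread between these libraries.

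Retinoic acid, made from vitamin A, enters the nucleus and binds a RAR, which sits on DNA as a heterodimer with an RXR. Without ligand the pair holds corepressors at its target genes, and with ligand it exchanges them for coactivators. RARB is itself a classic target gene of retinoic acid, and RXRs also pair with other nuclear receptors, such as the PPARs, the thyroid hormone receptors and the vitamin D receptor.

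Reads on genes numbered between 7905768 and 15137567 in the first blastocyst table, between 11336091 and 17343140 in the second and between 29055323 and 31230432 in the bESC table. The cell type labels were checked with marker genes. Summed FPKM (fragments scaled by gene length and library size) of 8 trophectoderm markers was between 2573 and 9548 in blastocysts and between 101 and 299.6 in bESCs. Summed FPKM of the epiblast markers, 6 genes in the blastocyst tables and 5 in the bESC table, was between 362.5 and 896 in blastocysts and between 1910.1 and 2046 in bESCs. That of 6 hypoblast markers was 156 to 465 in blastocysts and 27.0 to 114 in bESCs. In bESCs most of it was FN1, with group means of 68.1 and 68.4 FPKM. PDGFRA was at 2.09 and 2.23 there, and each other hypoblast marker at most at 0.193. For 7 fibroblast markers the summed FPKM was 6.10 to 90.7 in blastocysts and 70.8 to 72.5 in bESCs. For 5 cumulus markers it was 1.12 to 4.95 in blastocysts and 20.6 to 67.2 in bESCs. Most of the bESC cumulus sum was HAS2, with group means of 39.0 and 44.0 FPKM. FSHR was at 0 there, and AMH, TNFAIP6 and PTX3 at most at 1.47. The part of other cells in the bESC receptor levels was not tested. Some libraries stood apart from their group. DMSO replicate 3 had a mean correlation of 0.893 with the LY10 blastocysts and 0.820 with the other DMSO blastocysts, over 14249 genes. In the second table, LY_DMSO replicate 1 was closer to cell16_LY (0.932) than to the other LY_DMSO blastocyst (0.909), and cell2_LY replicate 2 was closer to cell16_LY (0.928) than to the other cell2_LY blastocyst (0.901). Each bESC library was closer to the 2 libraries of the other treatment (0.966 to 0.968) than to its partner (0.945 and 0.947). A whole blastocyst is a bulk sample, in which fewer cells of a type and less RNA per cell cannot be told apart.

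RARG, the gene of the receptor that LY targets, was close to unread in blastocysts. No read fell on RARG (NCBI Gene 540425, ARS-UCD2.0, chr5:26774193-26794819, plus strand) in any of the 3 DMSO blastocysts, and 0, 1 and 0 reads fell on it in the 3 LY10 blastocysts. There were 4 and 0 reads in LY_DMSO, 2 and 2 in cell2_LY, and 2 and 1 in cell16_LY. Over the 12 blastocysts together, 12 reads were found on RARG, with an exact 95% Poisson interval of 6.20 to 21.0, which covers counting error only, and at least 1 read was found in 6 of them. The pooled level was 0.0152 FPKM (95% Poisson interval 0.00787 to 0.0266). With 3 reads as the limit of detection, the RARG level at that limit was between 0.0365 and 0.0770 FPKM in a single blastocyst, and only LY_DMSO replicate 1 lay above it.

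In bESCs, RARG was one of the main RARs. It had 1797 and 1180 reads in bESC_tifx and 1274 and 1042 in bESC_LY, equal to 19.5, 11.9, 14.2 and 10.5 FPKM. All 4 levels lay above those of 69.6% to 80.2% of protein-coding genes in the same library. Had a blastocyst carried RARG at the lowest of these bESC levels, between 409 and 863 reads would have been counted at its depth and gene length. The blastocyst and bESC tables use different gene models for RARG, with 4989 bases of counted length in the former and 3113 in the latter.

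RARB was the leading RAR of the blastocyst. This gene (NCBI Gene 616895, chr27:40196705-40792265, minus strand) spans 595561 bases and encodes RARβ. Its level was 5.17, 8.30 and 2.07 FPKM in DMSO, 1.76, 3.91 and 4.02 in LY10, 3.38 and 5.32 in LY_DMSO, 0.379 and 0.685 in cell2_LY, and 2.81 and 2.23 in cell16_LY. The cell2_LY blastocysts were the lowest of the 12. RARB made up 88.9% to 99.3% of the summed RAR FPKM in the 10 blastocysts outside cell2_LY, and 40.9% and 66.9% in cell2_LY. In bESCs, RARB was the least abundant RAR, at 0.577 and 3.16 FPKM in bESC_tifx and 0.901 and 3.30 in bESC_LY, or 1.58% to 8.81% of the RAR sum. Gene models differ here too. The counted length was 3779 bases in blastocysts and 1461 in bESCs for RARB, and 5794 and 4504 for RARA.

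RARA (NCBI Gene 534280, chr19:40551174-40595283, plus strand), which encodes the broadly expressed RARα, was low in blastocysts, with 3 to 42 reads and a median of 0.214 FPKM (range 0.0377 to 0.519). The highest level was that of cell2_LY replicate 1, where RARA was 56.0% of the RAR sum, and the second cell2_LY blastocyst had 30.6%. No other blastocyst exceeded 10.3%. In bESCs, RARA had 2213 to 3541 reads and was the first or second RAR in each library, at 16.6 and 24.7 FPKM in bESC_tifx and 17.9 and 23.7 in bESC_LY.

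Among the RXRs, RXRB was the main transcript of blastocysts and RXRA that of bESCs. RXRB (NCBI Gene 504943, chr23:7379995-7386874, minus strand) encodes RXRβ and ranged from 0.875 to 4.95 FPKM in blastocysts, with a median of 1.86, which was 75.9% to 98.0% of the RXR sum. RXRA (NCBI Gene 507554, chr11:105021618-105114880, plus strand), the gene of the broadly expressed RXRα, ranged from 0.0407 to 0.627 FPKM there, and both cell2_LY blastocysts (0.627 and 0.578) stood above the other 10. In bESCs the order was turned: RXRA was at 23.6 and 41.5 FPKM in bESC_tifx and 22.9 and 40.4 in bESC_LY, or 67.2% to 76.0% of the RXR sum, and RXRB was at 10.8 to 13.5 FPKM.

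RXRG (NCBI Gene 509500, chr3:3538896-3599117, plus strand), whose product RXRγ is known from muscle and brain, was not read in 9 of the 12 blastocysts. DMSO replicate 2 had 10 reads, DMSO replicate 3 had 1 and LY_DMSO replicate 2 had 3, so that 10 of the 14 reads came from 1 embryo. All 14 reads lay in control blastocysts. Each LY blastocyst had 0 reads, for which the exact 95% Poisson upper limit is 3.69 reads. The limit of detection of 3 reads stood for 0.0867 to 0.182 FPKM in these LY blastocysts. In bESCs, 24 and 22 reads were found in bESC_tifx and 24 and 7 in bESC_LY, at most 0.414 FPKM.

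**Figure D1:**
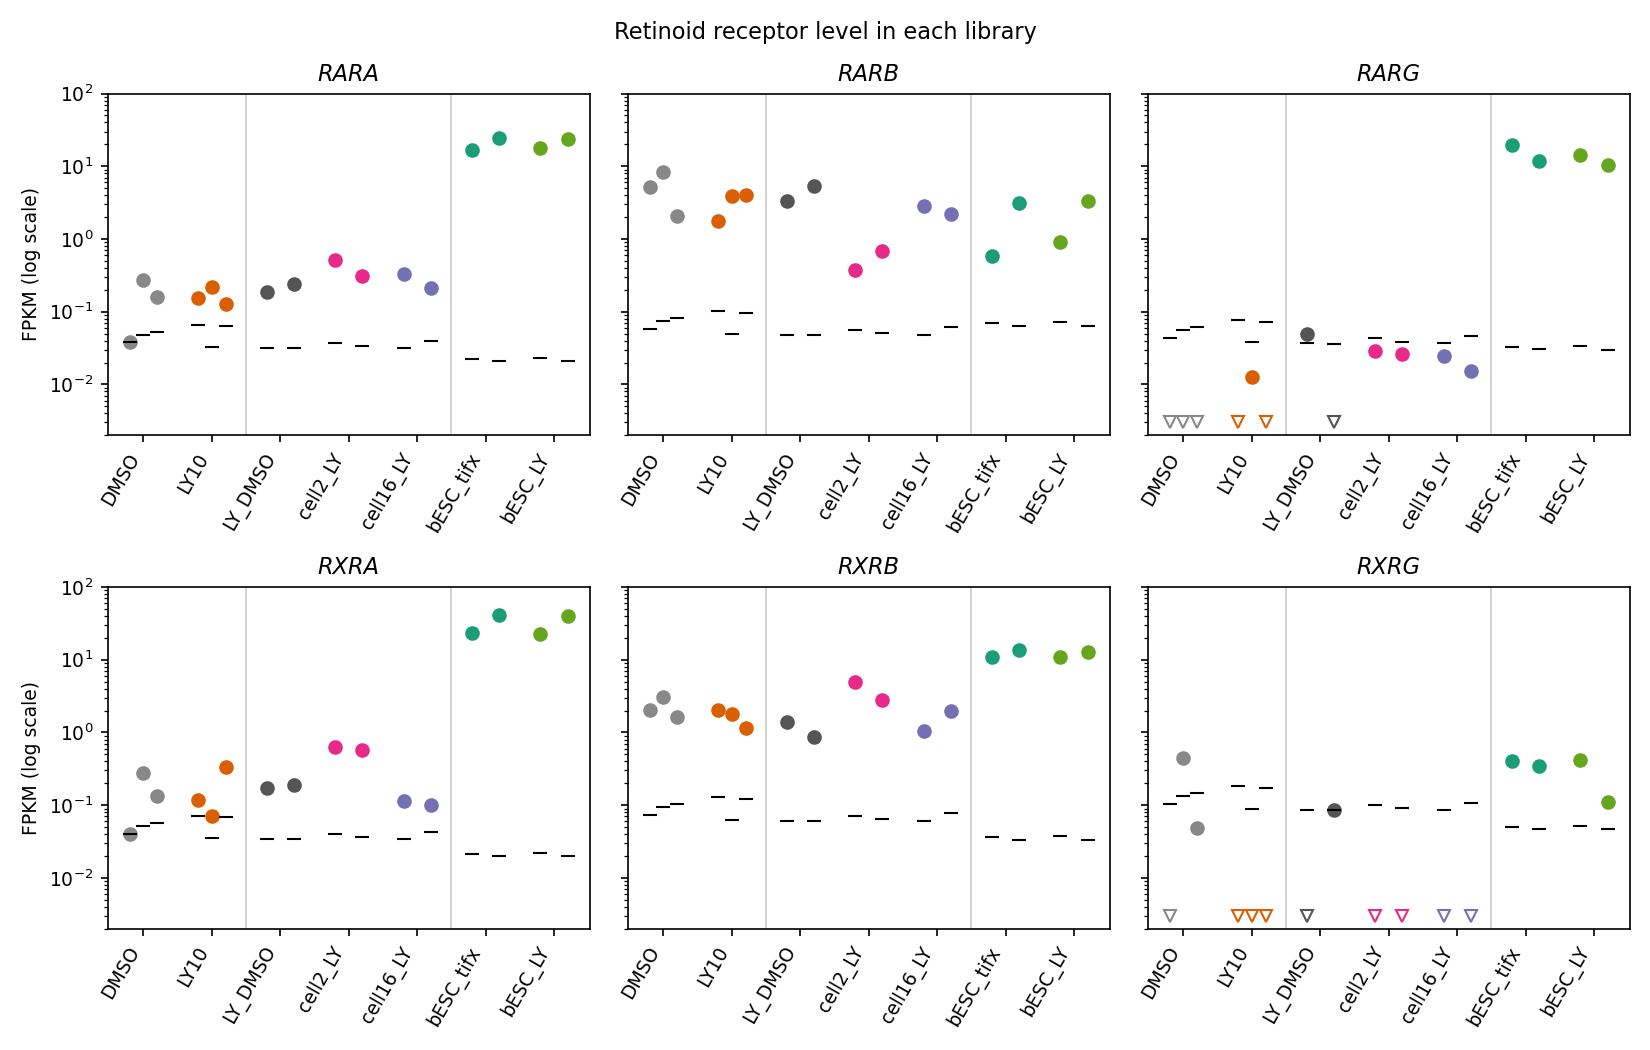
FPKM (log axis) of each receptor in every library, by group, with 1 point per library. Black dashes mark the level that 3 reads would give, open triangles at the bottom mark libraries with 0 reads, and grey lines separate the first blastocyst table, the second and the bESC table. RARG lies under the limit of detection in every blastocyst except LY_DMSO replicate 1 and between 10.5 and 19.5 FPKM in the bESCs, and RARB is lowest among blastocysts in cell2_LY.

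The order of the 6 receptors was tested within the 12 blastocysts on FPKM, which is scaled by the length of the gene model. A bias tied to a gene would repeat in every library, and this test cannot tell it apart from the level of the transcript. An exact two-sided sign-flip permutation test was run on the within-library difference in log2(FPKM + 0.1) for each of the 15 pairs, with Benjamini-Hochberg adjustment over the pairs. RARB and RXRB stood at the top, RARA and RXRA in the middle, and RARG and RXRG at the bottom. Members of the same step did not differ beyond their spread: RARB minus RXRB was 0.47 ± 1.65 (SD, n = 12, adjusted exact permutation p = 0.392), RARA minus RXRA was 0.11 ± 0.58 (adjusted exact permutation p = 0.551) and RARG minus RXRG was -0.16 ± 0.83 (adjusted exact permutation p = 0.621). RARB was higher than RXRB in 9 of 12 blastocysts. The 12 include both cell2_LY blastocysts, where the ratio of RARB to RXRB was 0.0765 and 0.246. In the 5 control blastocysts RARB minus RXRB was 1.35 ± 0.76 (SD), a set too small for the test to pass. Each of the other 12 pairs differed, with an adjusted exact permutation p of at most 0.00183.

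RARA minus RARB was -3.11 ± 1.54 on this log2 scale, and RARB was the higher in 11 of 12 blastocysts, with cell2_LY replicate 1 as the exception (adjusted exact permutation p = 0.00163). RARG was below RARA in 12 of 12 blastocysts, by 1.47 ± 0.47 (adjusted exact permutation p = 0.000916, from the smallest p that 12 blastocysts can give, 0.000488). The size of this difference was set by the pseudocount, since RARG was under the limit of detection in 11 of 12 blastocysts, and it was 3.51 with a pseudocount of 0.01 and 0.27 with 1. Pooled over the 12 blastocysts, RARA was at 0.240 FPKM and RARG at 0.0152. Within each blastocyst table alone, 10 of the 15 pairs differed, with 6 blastocysts and a smallest possible p of 0.03125 before adjustment. In the first table RARA and RXRA could not be separated from RXRG, and in the second RARB could not be separated from RARA or RXRA, whose pairs include the cell2_LY blastocysts. With the 5 control blastocysts alone the exact permutation test cannot pass, since the smallest p they allow is 0.0625.

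**Figure D2:**
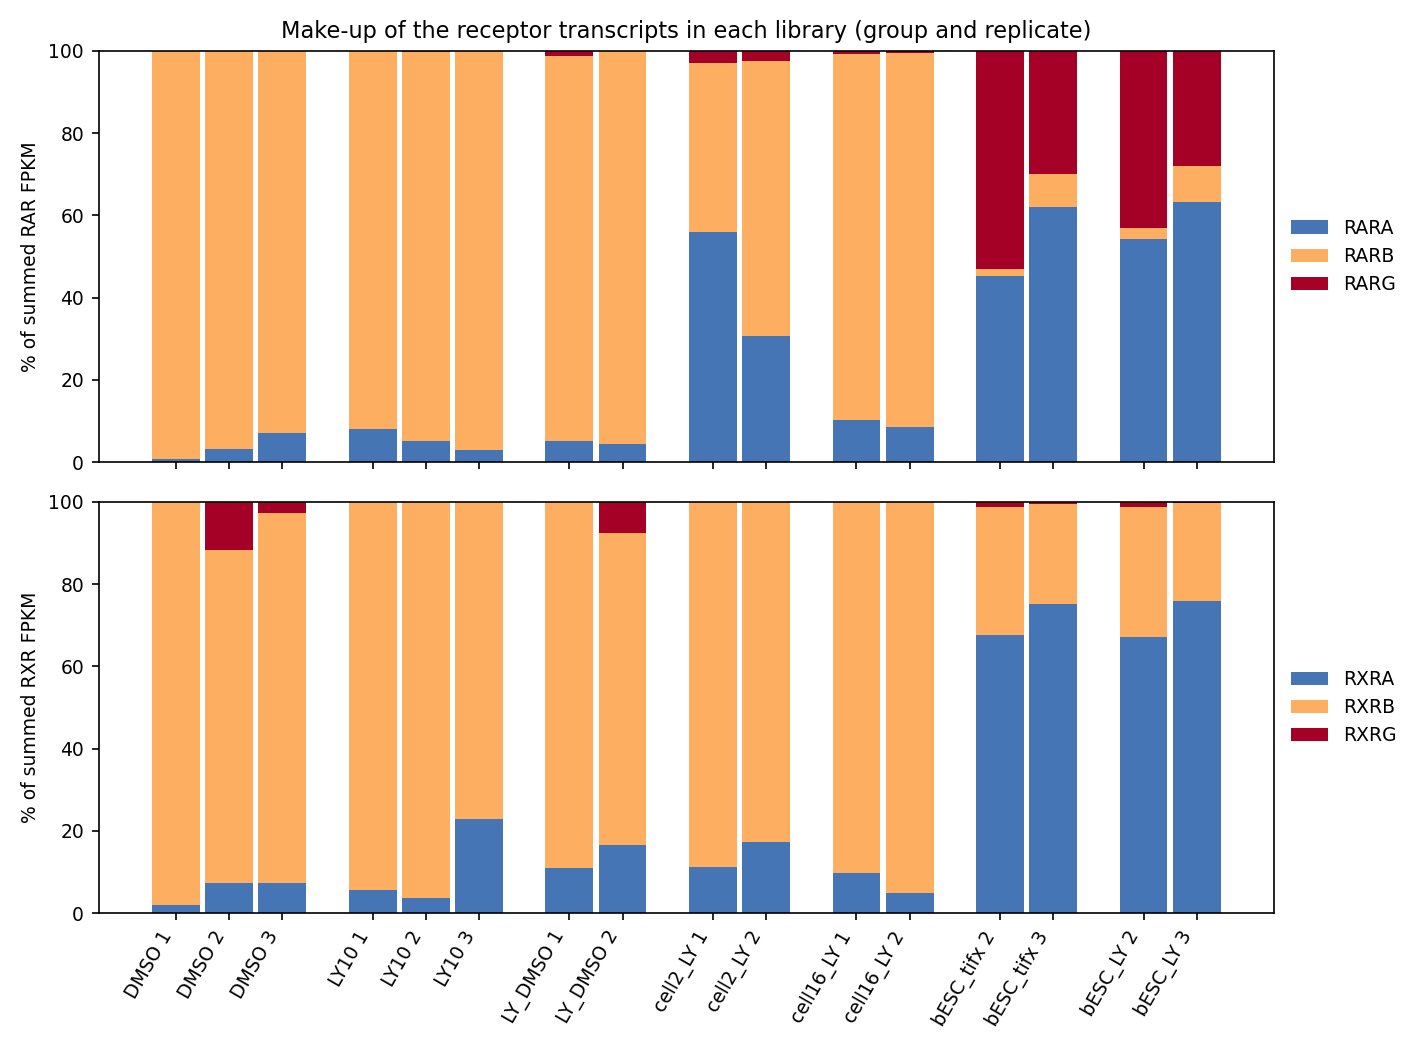
Share of each receptor in the summed RAR FPKM (top, in %) and the summed RXR FPKM (bottom, in %) of each library, with 1 bar per library, named by group and replicate. RARB fills 88.9% or more of the RAR bar in all blastocysts except the 2 of cell2_LY, whereas RARA and RARG share most of it in bESCs, and RXRB gives way to RXRA between blastocysts and bESCs.

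To ask whether LY moved the receptors, genes were compared between groups with limma where their normalized counts averaged 10 or more. A normalized count is the reads of a gene divided by the library size and brought to the mean library size of the table, and a log2 fold change here is a difference of log2(normalized count + 1). The study's threshold was used, an unadjusted p under 0.05 with an absolute log2 fold change above 1. Of the 6 receptors, 2 passed the filter in the first table (RARB, RXRB), 4 in the second (RARA, RARB, RXRA, RXRB) and 6 in the bESC table. No receptor in any comparison had an adjusted p under 0.05 (limma, Benjamini-Hochberg over all tested genes). Of all tested genes, 2 (0.014%) did in LY10 against DMSO, 2 (0.0138%) in cell2_LY against LY_DMSO and 0 in the other comparisons. This count was not stable: it was 1963 without DMSO replicate 3 and 1551 with sample weights in LY10 against DMSO, and 875 without cell2_LY replicate 2 in cell2_LY against LY_DMSO. At an unadjusted p under 0.05 there were 2 of 4 receptors in cell2_LY against LY_DMSO, beside 24.6% of all tested genes, and 3 of 4 in cell16_LY against cell2_LY, beside 17.9%. There were 0 receptors in the other comparisons, beside 22.9% of genes in LY10 against DMSO, 7.62% in cell16_LY against LY_DMSO and 0.0999% in bESCs.

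In LY10 against DMSO neither tested receptor passed the threshold, where 14.7% of the 14249 tested genes did. RARB had 208, 334 and 83.1 normalized counts in DMSO and 70.9, 158 and 162 in LY10. The groups overlapped, with DMSO replicate 3 at the level of LY10, and neither RARB nor RXRB was among the 28.1% of genes whose groups did not overlap. The log2 fold change was -0.56 (SE 0.55, limma adjusted p = 0.564). Without DMSO replicate 3 it was -1.11, past the threshold. RXRB had 64.4, 96.5 and 51.4 normalized counts in DMSO and 64.1, 56.3 and 36.3 in LY10, with a log2 fold change of -0.42 (SE 0.43, limma adjusted p = 0.580). Its groups overlapped as well. RARA and RXRA, at 2.33 to 16.9 and 2.33 to 19.4 normalized counts over the 6 blastocysts, lay under the filter. Fitted with no filter, RARA was at 0.35 (SE 0.99, limma adjusted p = 0.850) and RXRA at 0.24 (SE 1.05, limma adjusted p = 0.907). RARG and RXRG, at or near the limit of detection, did not pass the threshold in any comparison of blastocysts with no filter, and no fold is given for them. Of all tested genes, 884 were higher and 1213 lower in LY10, and with quantile normalization the split was 1074 and 879.

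In cell2_LY against LY_DMSO, RARB fell and RXRB rose at the threshold, which 17% of 14529 tested genes passed, with 8.34% lower and 8.71% higher. RARB had 195 and 307 normalized counts in LY_DMSO and 21.8 and 39.5 in cell2_LY, so the groups were far apart. The log2 fold change was -3.01 (SE 0.48, 95% confidence interval -4.11 to -1.92, limma adjusted p = 0.0711), and RARB passed the threshold in all 19 alternatives run, with log2 fold changes between -3.43 and -1.79. RXRB had 63.0 and 39.7 normalized counts in LY_DMSO and 225.0 and 126 in cell2_LY, a log2 fold change of 1.73 (SE 0.54, limma adjusted p = 0.113). This call did not hold without cell2_LY replicate 1 (1.32) or without LY_DMSO replicate 2 (1.41).

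RXRA and RARA did not pass the threshold in this comparison, although their groups did not overlap. RXRA had 13.9 and 15.7 normalized counts in LY_DMSO and 51.3 and 47.3 in cell2_LY, with a log2 fold change of 1.67 (SE 0.73, limma adjusted p = 0.203). RXRA passed the threshold in 3 alternatives, namely a pseudocount of 5 (1.46), voom (1.71) and reads on genes as library size (1.90). RARA had 16.7 and 21.3 in LY_DMSO and 45.9 and 27.6 in cell2_LY, with a log2 fold change of 0.88 (SE 0.70, limma adjusted p = 0.456). All 4 tested receptors thus had groups that did not overlap, as did 53.7% of all tested genes. When reads on genes served as the library size, the split of all calls moved from 1265 higher and 1211 lower to 1842 and 674, and the middle log2 fold change over all tested genes moved from 0.0029 to 0.24. RARB was then at -2.79, RXRB at 1.96 and RXRA at 1.90.

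The ratio of RARB to RXRB FPKM needs no library size. It was 2.43 and 6.09 in LY_DMSO and 0.0765 and 0.246 in cell2_LY. In the first table it was between 1.27 and 2.73 in DMSO and between 0.872 and 3.52 in LY10. The LY10 and cell2_LY blastocysts both met LY from the 2-cell stage but were compared with different controls in separately normalized tables, so their ratios were not tested against each other.

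Markers of the trophectoderm, the outer cell layer of the blastocyst, moved with the cell2_LY group. All 8 were higher than in LY_DMSO (median log2 fold change 0.87, against 0.0029 over all tested genes), and 2 passed the threshold, CDX2 (2.78, limma adjusted p = 0.0811) and GATA2 (1.99, limma adjusted p = 0.0711). Their summed FPKM was 3965 to 4769 in LY_DMSO and 5014.5 to 7444 in cell2_LY, with none of the 8 at 0. Of 6 epiblast markers 4 were lower and 1 passed, with a median of -1.12, namely DPPA3 (-1.59, limma adjusted p = 0.0711). The part of these markers in the receptor differences was not tested.

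In cell16_LY against LY_DMSO none of the 4 tested receptors passed the threshold, which 5.22% of genes did. RARB had 162 and 128 normalized counts in cell16_LY, below the 195 and 307 of LY_DMSO in both blastocysts, with a log2 fold change of -0.76 (SE 0.48, 95% confidence interval -1.85 to 0.33, limma adjusted p = 0.751). RXRA had 9.30 and 8.16, also below both controls, with a log2 fold change of -0.70 (SE 0.73, limma adjusted p = 0.856). The groups did not overlap for these 2 receptors of 4, both lower, and for 42.9% of all tested genes, 22% lower. RXRB (0.37) and RARA (0.29) had overlapping groups.

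A direct comparison of the 2 starting stages, cell16_LY against cell2_LY, placed 3 of the 4 tested receptors past the threshold, where 11.3% of genes passed, 5.58% higher and 5.77% lower. The groups of RARB, RXRA and RXRB did not overlap, as for 54.5% of genes. RARB was higher when LY began at the 16-cell stage, by a log2 fold change of 2.25 (SE 0.48, 95% confidence interval 1.16 to 3.35, limma adjusted p = 0.191), and passed in all 19 alternatives. RXRA was lower, with a log2 fold change of -2.37 (SE 0.73, limma adjusted p = 0.197), and lost its call without cell16_LY replicate 2 (-2.29). RXRB was lower, with a log2 fold change of -1.36 (SE 0.54, limma adjusted p = 0.250), with 47.4 and 88.6 normalized counts in cell16_LY. Its call was lost without cell2_LY replicate 1 (-0.95), without cell16_LY replicate 1 (-0.92), with quantile normalization (-1.22) and on log2(FPKM + 1) (-0.95). RARA did not pass (-0.60, SE 0.70, limma adjusted p = 0.669). CDX2 and GATA2 were also lower in cell16_LY (-1.84 and -1.94, limma adjusted p = 0.227 and 0.186), and their part was not tested. With reads on genes as library size the split of all calls moved from 810 higher and 839 lower to 421 and 1261, with RARB at 2.05 and RXRA at -2.58.

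**Figure D3:**
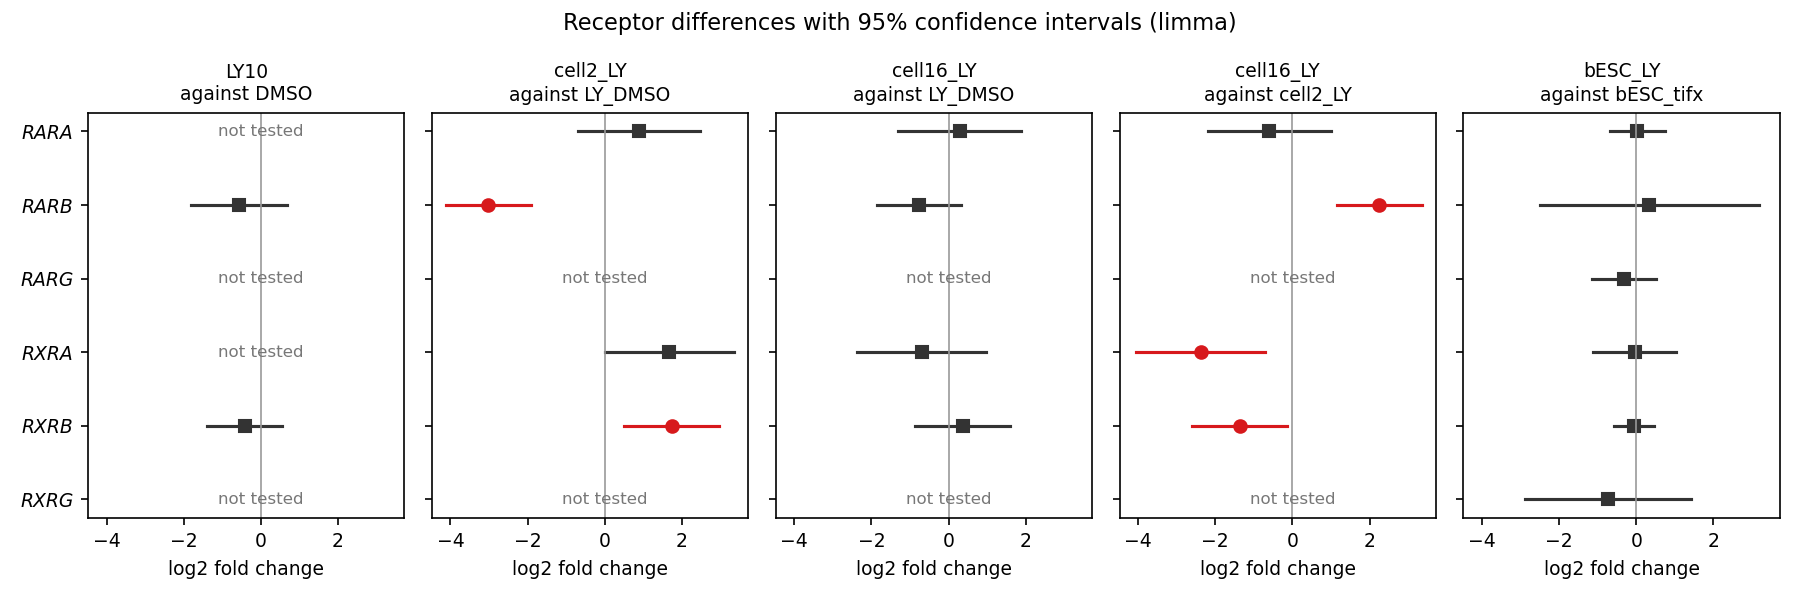
Log2 fold change of each receptor with its 95% confidence interval (limma) in the 5 comparisons. Red circles passed the study's threshold, dark squares did not, and receptors under the filter on low values are marked as not tested. RARB lies at -3.01 in cell2_LY against LY_DMSO and at 2.25 in cell16_LY against cell2_LY, and every bESC interval includes 0.

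In bESC_LY against bESC_tifx none of the 6 receptors passed the threshold, which 0.0749% of 16012 genes (12 genes) did. The groups of all 6 overlapped, and those of 14.2% of genes did not. RARG had 1852 and 1131 normalized counts in bESC_tifx and 1349 and 997 in bESC_LY. Within each library number RARG was lower with LY, from 1852 to 1349 and from 1131 to 997. Its log2 fold change was -0.32 (SE 0.31, 95% confidence interval -1.15 to 0.51). This fit did not use the library number, so the intervals and adjusted p given here also hold the spread between the numbers. Each number occurred once in each group, so using it as a block leaves the log2 fold changes as they are. The largest in absolute value was that of RXRG, at -0.74. No receptor could therefore pass the threshold with the block, and that fit is no test of the receptors at this threshold. Without the block, RARA was at 0.02 (95% confidence interval -0.69 to 0.73), RXRA at -0.04 (-1.11 to 1.03) and RXRB at -0.05 (-0.58 to 0.47). The intervals of RARB (-2.49 to 3.18) and RXRG (-2.89 to 1.41) were wide. The adjusted p of all 6 receptors was 1.00 (limma).

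Libraries of the same number lay closer to each other than those of the same treatment for several receptors. RARB had 25.8 and 40.2 normalized counts in the libraries numbered 2 and 141 and 147 in those numbered 3. RXRA had 3416 and 3313 against 6000.4 and 5840.1, and RARG went the other way, with 1852 and 1349 in the libraries numbered 2 and 1131 and 997 in those numbered 3. The trophectoderm marker CDX2 was at 14.4 and 9.53 normalized counts in the libraries numbered 2 and 539 and 597 in those numbered 3. The labels do not say what the number stands for, and these differences were not tested.

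Genes that lie beside the receptors were also read. TOP2B, which encodes a DNA topoisomerase, lies 48 bases from RARB on the opposite strand, and had 1586 and 2020.0 normalized counts in LY_DMSO and 1443 and 1644 in cell2_LY. SLC39A7, a zinc transporter gene, lies 86 bases from RXRB on the opposite strand and moved in the same direction as RXRB, with 224 and 385 normalized counts in LY_DMSO and 427 and 1014.5 in cell2_LY. The sources used here do not state whether counting used strand, so reads of such a pair may not be separable. In the bESC gene models RXRB and SLC39A7 overlap by 498 bases, and SLC39A7 had 4226 to 4455 reads there.

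The genes whose levels followed a receptor most closely over the 12 blastocysts were found by Pearson correlation of log2(normalized count + 1), centred on the mean of each table, among 8621 named genes. For RARB they were ADH5 (r = 0.969, Spearman rho = 0.937), an enzyme of formaldehyde removal, PRPS1 (r = 0.968, rho = 0.979), a nucleotide synthesis enzyme, and POLR1F (r = 0.965, rho = 0.902), a subunit of RNA polymerase I. For RXRB they were PDPK1 (r = 0.980, rho = 0.993), a kinase upstream of AKT, RING1 (r = 0.964, rho = 0.958), a Polycomb protein gene at chr23:7395562-7399419 on the chromosome of RXRB, and CTDNEP1 (r = 0.958, rho = 0.951), a nuclear envelope phosphatase. These values are descriptions, since the 12 points share treatment groups, library size and amplification.

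Other genes of the pathway were followed through 5 lists. In LY10 against DMSO, 11 of 19 genes of ligand supply and breakdown were tested, of which 5 fell and 1 rose (median log2 fold change -1.01, against -0.05 over all tested genes). Of all 14249 tested genes 14.7% passed, 1213 of them lower. RBP4, the retinol carrier of the blood, had 32.6, 99.5 and 83.1 in DMSO and 1.36, 6.03 and 1.29 in LY10. The groups were far apart, and the log2 fold change was -4.29 (limma adjusted p = 0.0783). DHRS9, an enzyme that oxidizes retinol, fell by 4.73 on the log2 scale (limma adjusted p = 0.0786). Also past the threshold, and given after their values were seen, were CRABP2 (-3.54), FABP5 (-1.60) and RDH11 (1.05).

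Of 18 genes that retinoic acid is known to induce, 9 were tested in LY10 against DMSO and 4 fell (median -0.56), beside the same 14.7% of all tested genes that passed. Among these were CRABP2, which carries retinoic acid to the RARs and had 13.2, 38.8 and 83.1 normalized counts in DMSO and 0, 7.37 and 2.59 in LY10 (-3.54, limma adjusted p = 0.114), NRIP1, a corepressor gene (-1.04, limma adjusted p = 0.164), and RARRES1 (-1.24, limma adjusted p = 0.196), the last given after its values were seen. CRABP2 belongs to both lists. With voom on the recovered reads, CRABP2 (-3.34) and DHRS9 (-4.96) did not pass. Cell type markers moved in this comparison too. The epiblast markers had a median of 1.04, with 1 of 6 tested past the threshold and higher, and the hypoblast markers a median of 0.88, with 2 of 5 past it and higher. Of the fibroblast markers, all 5 tested were lower in LY10 and 2 passed, with a median of -1.68, and their summed FPKM over 7 genes was 24.4 to 90.7 in DMSO and 6.10 to 11.7 in LY10, with none of the 7 at 0. The part of these markers was not tested.

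Among the cofactors, HDAC3, the deacetylase of the NCOR corepressor complex, rose in LY10 (1.05, limma adjusted p = 0.0792), from 360.1 to 528 normalized counts in DMSO to 784 to 948 in LY10. It and NRIP1 were the corepressor models past the threshold among 9 tested (median 0.09), and none of 8 tested coactivators passed (median 0.06). Of the other RXR partners 1 of 6 tested passed, PPARD, the gene of PPARδ (-1.52, limma adjusted p = 0.150; median of the list -1.04). The call of HDAC3 was lost without DMSO replicate 2 (0.93). Calls of NRIP1 and PPARD were each lost in 4 alternatives, among them the fits without DMSO replicate 2 (-0.71 and -1.12) and without LY10 replicate 1 (-0.72 and -1.37), and PPARD also without DMSO replicate 1 (-1.51).

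In cell2_LY against LY_DMSO, the retinaldehyde dehydrogenases, which make retinoic acid, moved in opposite directions. ALDH1A3 had 180 and 84.1 normalized counts in LY_DMSO and 946 and 656 in cell2_LY (2.67, limma adjusted p = 0.0711). ALDH1A1 had 21.3 and 68.4 in LY_DMSO and 0 and 2.96 in cell2_LY (-4.31, limma adjusted p = 0.102). These were the 2 ligand genes of 11 tested that passed (median -0.77), and of 10 tested retinoic acid induced genes RARB alone passed (median -0.57). Such counts are near the 17% of all tested genes that passed.

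The coactivator PRMT1, an arginine methyltransferase, fell from 862 and 1044 normalized counts in LY_DMSO to 259 and 375 in cell2_LY (-1.60, limma adjusted p = 0.0711), as 1 of 9 tested coactivators (median 0.15). PPARD rose as 1 of 6 tested partners (1.91, limma adjusted p = 0.107; median 0.26), from 33.4 and 65.6 normalized counts to 290.5 and 110.5, and lost its call without cell2_LY replicate 1 (1.22) or without LY_DMSO replicate 1 (1.44). Of 10 tested corepressor models 1 passed (median 0.03), 1 of the 2 models listed as TBL1X (1.13, limma adjusted p = 0.139). Reads may be split between models of the same symbol, so this value is uncertain, and it was lost without cell2_LY replicate 1 (0.68) or without LY_DMSO replicate 2 (1.08).

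In cell16_LY against LY_DMSO, ALDH1A3 was the one listed gene past the threshold, with 930 and 795 normalized counts in cell16_LY (2.80, limma adjusted p = 0.187). The medians of the 5 lists lay between -0.30 and 0.53. When the 2 starting stages were compared, 4 further listed genes or models passed beside RARB. RARRES1, a retinoic acid induced gene, was higher in cell16_LY (1.46) and PRMT1 was higher (1.01). CRABP1, which holds retinoic acid in the cytoplasm, was lower (-1.88), as was the same TBL1X model (-1.16). Their adjusted p lay between 0.193 and 0.268 (limma). CRABP1 was lost in each of the 4 fits that left out a cell2_LY or cell16_LY blastocyst (-2.17 to -1.59), and RARRES1 was lost without cell16_LY replicate 1 (0.85), without cell2_LY replicate 1 (1.23) and without cell2_LY replicate 2 (1.69). PRMT1 was lost without cell2_LY replicate 1 (0.75), without cell16_LY replicate 1 (0.98), with reads on genes as library size (0.80) and on log2(FPKM + 1) (0.95). TBL1X was lost without cell2_LY replicate 1 (-0.71) and without cell16_LY replicate 2 (-0.95). In bESCs, none of the genes tested in the 5 lists passed, with list medians between -0.15 and 0.15.

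**Figure D4:**
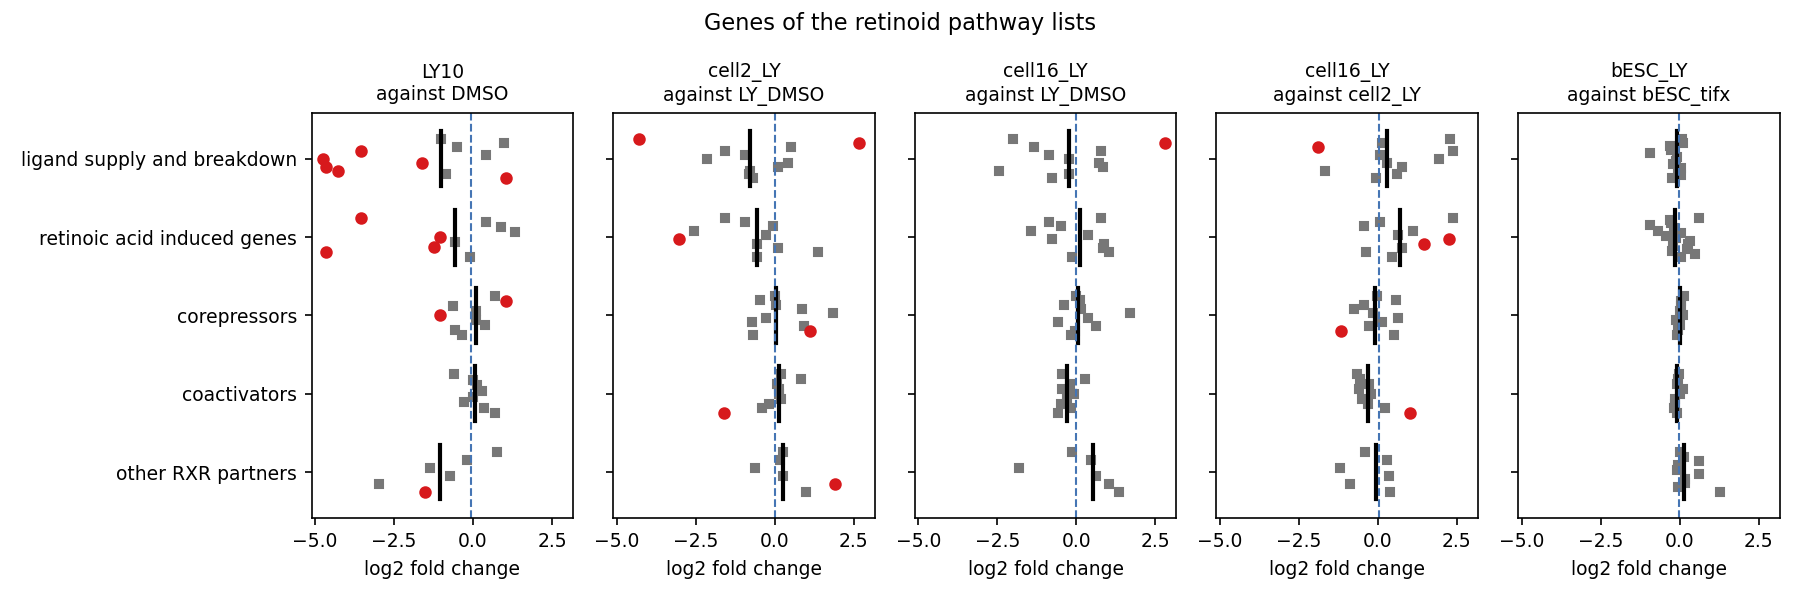
Log2 fold change of every tested gene of the 5 retinoid pathway lists in the 5 comparisons (limma). Red circles passed the study's threshold, grey squares did not, black bars are the median of a list and the dashed blue line is the median of all tested genes. The 5 ligand genes that fell in LY10 lie between -4.73 and -1.60, and no listed gene passed in bESCs.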

How the data were processed

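Per the file headers, the authors deposited FPKM per gene for 16 libraries in 3 tables, made from gene counts. The submitters' processing notes name HISAT2 2.0.5, featureCounts 1.5.0-p3, StringTie 1.3.3b and DESeq2 1.20.0, and the methods also describe trimming. The build of the bESC table is not given in the sources used here, and positions of the 6 receptors in the blastocyst tables match RefSeq ARS-UCD2.0. Multiplying FPKM by gene length and library size gave whole reads (within 0.02) for all values. Normalized counts were the reads over the library size of the authors, brought to the geometric mean library size of each table. They were tested as log2(normalized count + 1) with limma 3.58.1 (R 4.3.3, trend) where the mean was at least 10, with Benjamini-Hochberg adjustment over all tested genes. The second table was fitted as 3 groups together. The scripts were tested on simulated data. The deposited log2 fold changes, p-values and adjusted p-values are the authors' own DESeq2 comparisons and were not used. Precision is limited by depth, and 3 reads was taken as the limit of detection.

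The 6 receptors were chosen by symbol, and the pathway and marker lists by known role. Both were chosen with earlier results of these data known, so they are not independent support. The text names, for each list and comparison, up to 3 tested genes past the threshold with the smallest p, and gives others as chosen after their values were seen. An item that the list counts include is not reported here. For likeness, the 3 genes with the highest r were taken among genes whose normalized counts averaged 50 or more in both tables. Transcripts only were measured, not protein. Alternatives were another pseudocount (0.5 or 5), no filter or stricter filters, reads on genes as library size, median-of-ratios size factors, quantile normalization, a fit of only the groups compared, log2(FPKM + 1), voom, sample weights, a replicate block and leaving out each library.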

Additional observations from a re-analysis of the deposited data

Results flagged for a closer look

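In the test of the difference itself between the 2 starting stages of LY, cell16_LY against cell2_LY, 3 receptors passed the study's threshold (limma, unadjusted p under 0.05, absolute log2 fold change above 1), and none passed after adjustment. RARB was 2.25 higher on the log2 scale with LY from the 16-cell stage (SE 0.48, limma adjusted p = 0.191). RXRA had a log2 fold change of -2.37 (SE 0.73, limma adjusted p = 0.197) and RXRB one of -1.36 (SE 0.54, limma adjusted p = 0.250). Both groups held 2 blastocysts and shared the LY_DMSO controls.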

How the results depend on the processing

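Receptors with few reads lay under the filter on low values, and RARA and RXRA gave no value with a mean count of at least 50 or a mean FPKM of at least 0.5. RARB passed the threshold in all 19 alternatives for both comparisons with cell2_LY. The cause of the shifts below was not tested unless the setting removed genes or libraries.

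Counts of all genes past the threshold moved by more than 1.5 times under some settings. LY10 against DMSO gave 2097 genes, 1350 with a mean of at least 50, and 1327 to 3449 when single libraries were left out. Cell2_LY against LY_DMSO gave 2476, 1628 on log2(FPKM + 1) and 1576 to 3404 without single libraries. Cell16_LY against LY_DMSO gave 758, 1238 with no filter, 454 on log2(FPKM + 1) and 350 to 1362 without single libraries. Cell16_LY against cell2_LY gave 1649, 958 on log2(FPKM + 1) and 816 to 2910 without single libraries. BESC_LY against bESC_tifx gave 12, 158 with no filter, 2 with a mean of at least 50, 22 on log2(FPKM + 1) and 29 to 58 without single libraries. The libraries that moved a count this far were DMSO replicates 2 and 3, both cell2_LY replicates, LY_DMSO replicate 1, cell16_LY replicate 1 and all 4 bESC libraries.

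Receptors past the threshold without single libraries numbered 0 to 1 in LY10 against DMSO, 1 to 2 in cell2_LY against LY_DMSO and 2 to 3 in cell16_LY against cell2_LY, where log2(FPKM + 1) gave 1. The count of receptor pairs that differed was 12, and 0 in control blastocysts alone. Directions turned for values that passed no threshold. Without single libraries, RXRB ranged from -0.077 to 0.81 and RARA from -0.013 to 0.59 in cell16_LY against LY_DMSO. In bESCs, RXRB ranged from -0.20 to 0.10, RARG from -0.67 to 0.036, RARB from -0.86 to 1.55, RARA from -0.26 to 0.31, RXRG from -1.63 to 0.15 and RXRA from -0.45 to 0.37. RARB minus RXRB was -0.0076 in the second table alone. RARG minus RXRG was 0.15 there and ranged from -0.23 to 0.045 without single libraries.

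Same-numbered libraries of different groups correlated in their deviations at -0.117, 0.168 and -0.0997 in the first table, at 0.121, -0.133 and -0.232 in the second and at 0.789 in bESCs. The bESC libraries of the same number thus deviated together, but there were only 2 pairs and the labels do not say what the number marks, so the block was kept as an alternative. With the replicate number as a block, the counts were 2060, 2489, 790 and 1632 for the 4 blastocyst comparisons and 146 in bESCs. In that bESC fit, 116 of all tested genes had an adjusted p under 0.05 at any fold change (limma). No receptor call changed with the block. In bESCs none could change, since the block leaves the log2 fold changes of the receptors as they are, all under 1 in absolute value. A crossed pairing of the second table, chosen after seeing the data, gave 2723, 928 and 1891 genes.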
